A study of Mus musculus with 6 samples.

Results

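Neuronal cytoskeleton genes were followed in the adult Bahd1-KO brain. They are 36 genes, taken by their symbol from the 53801 genes of the deposited count table: 5 alpha-tubulins, 7 beta-tubulins, 2 gamma-tubulins, 5 neuronal intermediate filament proteins, 8 microtubule-associated proteins, 4 stathmins and 5 collapsin response mediator proteins (CRMPs). All 36 were in the table and all 36 passed the filter of at least 10 counts over the 6 samples, as did 23975 genes in all. Bahd1 encodes a protein of repressive chromatin, and the comparison asks how its loss changes RNA levels in the brain. RNA-seq was done on a hemisphere from each of 3 wild type mice (Bahd1+/+, Bahd1-WT) and 3 knockout mice (Bahd1-/-, Bahd1-KO). All were adults of the strain C57BL/6, about 70 weeks old, and the knockout mice, bred from heterozygous parents, carried the mutation in both copies of the gene. Each sample held a mixture of neurons, glia, vessels and choroid plexus from all regions, so fewer cells of a type and less RNA per cell cannot be told apart.

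The libraries held 42297150 to 93557948 counts, so that 3 counts, taken as the smallest level that could be read, came to 0.0321 to 0.0709 CPM (counts scaled to a common library size after TMM normalization). All 36 genes had a mean above that level over the 6 samples. For Bahd1, 1383, 844 and 1099 reads were counted in Bahd1-WT replicates 1 to 3, and 0, 14 and 1 in Bahd1-KO replicates 1 to 3, so the libraries matched their labels. The hemisphere was neural tissue by its markers, since the summed level of 9 pan-neuronal genes was 7646 to 8644 CPM in Bahd1-WT and 8413 to 8828 CPM in Bahd1-KO, with none of them at 0. Bahd1-KO replicate 2 stood apart: it was the highest of the 6 libraries for 22 of the 36 genes and the lowest for 5. Fold changes between the genotypes also followed the GC content of transcripts. Across the 36 genes the Spearman correlation of the log2 fold change with GC content was 0.62, and across all expressed genes it was 0.86. These are correlations across genes that share the same 6 libraries, and carry no test. A fit was therefore also made with an offset per library for the GC content and length of the transcript, called the GC and length offset, and its values stand beside those of the fit without it.

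Microtubules are hollow tubes of alpha- and beta-tubulin dimers that run along axons and dendrites, and gamma-tubulin forms the rings from which they grow. Neurofilaments, built from the light, medium and heavy subunits with alpha-internexin and peripherin, fill large axons and set their caliber. Microtubule-associated proteins such as tau and MAP2 bind and space microtubules, MAP2 in dendrites and tau mainly in axons. Stathmins bind free tubulin dimers, and CRMPs carry signals from guidance cues to the cytoskeleton of the growth cone.

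The 300-base promoter windows of 3 genes are shown because these genes had the largest positive fold changes (Tubb3 and Prph) and the lowest one (Map2). Each runs from 250 bases before to 50 bases after the start of the gene in RefSeq, on GRCm38.p6, all on the plus strand: chr8:123411303-123411602 for Tubb3, chr15:99054924-99055223 for Prph and chr1:66175079-66175378 for Map2. Capitals mark the GC box, GGGCGG or its reverse complement CCGCCC, the core letters bound by SP-family factors.
Tubb3: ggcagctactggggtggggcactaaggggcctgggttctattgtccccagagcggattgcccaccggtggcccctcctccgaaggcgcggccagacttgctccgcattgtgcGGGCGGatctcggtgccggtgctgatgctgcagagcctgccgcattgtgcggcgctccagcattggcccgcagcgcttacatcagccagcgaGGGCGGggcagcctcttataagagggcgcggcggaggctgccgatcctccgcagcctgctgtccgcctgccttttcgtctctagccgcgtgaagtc
Prph: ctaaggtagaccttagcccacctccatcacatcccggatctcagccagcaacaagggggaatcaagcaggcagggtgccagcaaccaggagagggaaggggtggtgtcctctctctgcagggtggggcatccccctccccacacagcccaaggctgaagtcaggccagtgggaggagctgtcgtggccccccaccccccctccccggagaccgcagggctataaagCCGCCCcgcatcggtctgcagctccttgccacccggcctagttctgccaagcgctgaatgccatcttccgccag
Map2: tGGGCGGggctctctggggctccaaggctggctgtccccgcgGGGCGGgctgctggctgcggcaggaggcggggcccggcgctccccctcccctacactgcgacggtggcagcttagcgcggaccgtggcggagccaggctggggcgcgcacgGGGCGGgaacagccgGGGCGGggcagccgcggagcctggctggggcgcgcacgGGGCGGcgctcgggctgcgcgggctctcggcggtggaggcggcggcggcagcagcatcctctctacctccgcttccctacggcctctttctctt
The Tubb3 window held 2 GC boxes at a GC content of 67.3%, the Prph window 1 at 64.7% and the Map2 window 5 at 77.7%. Of these 3 windows, that of Map2 held the most boxes. A window of Crmp1, with a log2 fold change of 0.97, also held 5. RefSeq windows were matched for 22 of the 36 genes, and 17 of their 25 windows (68%) held a GC box, against 35.7% of the 32851 windows of all genes. The median GC content of these windows was 62.3%, against 52.7% for all windows. The part of GC content in the share with a box was not tested. Across the 22 genes the Spearman correlation of the GC content of the promoter with the log2 fold change was -0.15, given as a description over genes of the same libraries. A match of these letters describes the sequence and not a bound site.

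No gene of the 36 passed an adjusted p-value of 0.05 in edgeR's quasi-likelihood test, where 0.00834% of all genes tested did. At an unadjusted p-value under 0.05, 18 of the 36 (50%) were higher in Bahd1-KO, against 19.9% of all genes tested, and 1, Map2, was lower (2.78%), against 12% of all genes tested. DESeq2 with its normal prior called 16 of the 36 higher at an adjusted p-value under 0.05 (44.4%), against 17.7% of the genes it tested, and 0 lower, against 3.54%. The lowest adjusted p-value among the 36 in edgeR was 0.0634, and 17 lay under 0.1 in the higher direction (47.2%), against 14.7% of all genes tested, and 0 in the lower direction, against 4.77%. Of the 36, 9 lay under 0.1 without Bahd1-KO replicate 2, where 2583 of all genes did, and 0 without Bahd1-KO replicate 3 or any of the Bahd1-WT libraries, where at most 5 of all genes did. Without Bahd1-KO replicate 2, 16 were higher and 1 lower at an unadjusted p-value under 0.05, against 15.5% and 9.35% of all genes tested. Without Bahd1-WT replicate 2, 11 were higher, where 4286 of 23427 genes had such a p-value in either direction, against 7627 of 23975 with all libraries, and leaving out any of the Bahd1-WT libraries ended the lower call of Map2. Without Bahd1-KO replicate 1, 18 were higher and 2 lower at an adjusted p-value under 0.05, against 19.8% and 10.3% of all genes tested. In 18 genes every Bahd1-KO library lay above every Bahd1-WT library, where 20.6% of all genes tested had this order, and in 3 every one lay below, where 19.3% did.

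The median log2 fold change (Bahd1-KO over Bahd1-WT) of the 36 genes was 0.59, beside -0.06 over all genes tested, and 28 of the 36 were above 0, beside 46.6% of all genes. Without Bahd1-KO replicate 2 the median was 0.36. By family, the median was 0.84 in alpha-tubulins, 0.85 in beta-tubulins, 1.31 in gamma-tubulins, 0.27 in intermediate filament genes, -0.05 in microtubule-associated protein genes, 0.53 in stathmins and 0.32 in CRMPs. The family medians from the offset fit, in the same order, were 0.24, 0.25, 0.18, -0.69, -0.10, 0.13 and -0.19, so intermediate filament genes and CRMPs were then below 0. In the fit without the offset and without Bahd1-KO replicate 2, the family medians were 0.60, 0.50, 0.81, 0.28, -0.02, 0.21 and 0.15. That of CRMPs was 0.76 without Bahd1-WT replicate 3 and 0.10 without Bahd1-WT replicate 2. The median of the 36 in the offset fit was -0.06, and 16 of the 36 were above 0, beside 42.5% of all genes. In that fit, at an unadjusted p-value under 0.05, 8 genes were higher (22.2%, against 9.89% of all genes) and 9 lower (25%, against 11.4%). The 8 higher genes were Tuba4a, Tuba8, Tubb3, Tubb5, Tubg1, Stmn1, Stmn2 and Dpysl4, and the 9 lower genes were Tuba1a, Tubb4a, Nefm, Nefh, Ina, Map2, Map7, Stmn3 and Stmn4. None of the 36 passed an adjusted p-value of 0.05 in that fit in edgeR, where 0.0167% of all genes did. Of the 14 tubulin genes, 11 were higher and 0 lower at an unadjusted p-value under 0.05 in the fit without the offset, against 19.9% and 12% of all genes tested, and 5 were higher and 2 lower with it, against 9.89% and 11.4%.

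**Figure D1:**
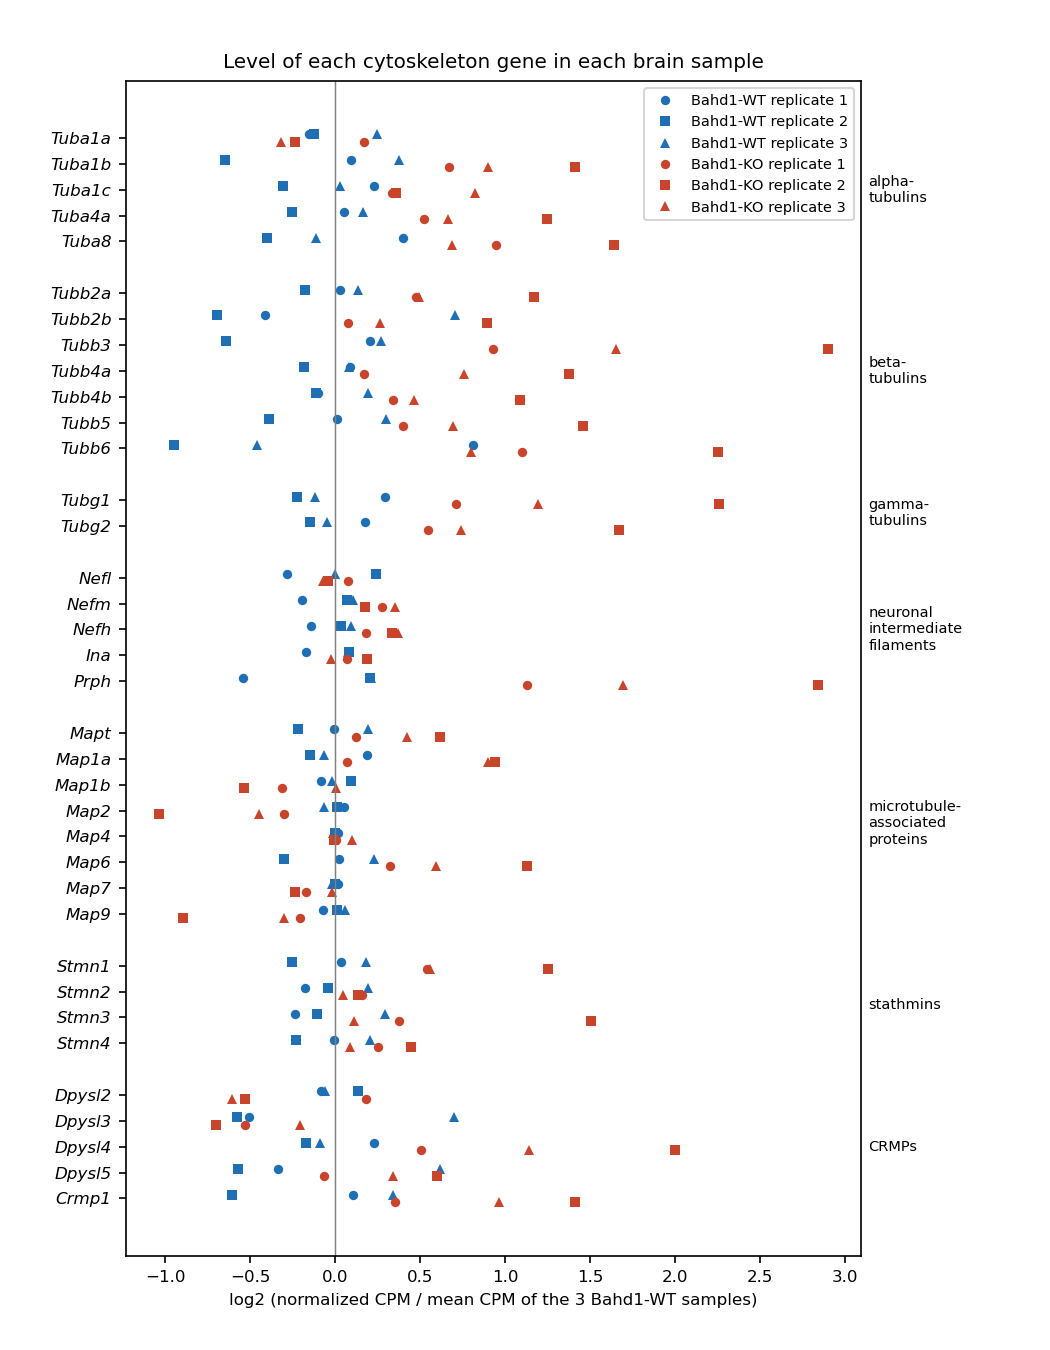
Level of each of the 36 genes in each of the 6 libraries, as log2 of CPM over the mean of the Bahd1-WT libraries, with genes in rows by family and 1 point per library (Bahd1-WT blue, Bahd1-KO red, with circles, squares and triangles for replicates 1, 2 and 3). The red squares, Bahd1-KO replicate 2, are the highest point of 22 genes and the lowest of 5.

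Among the alpha-tubulin genes, Tuba1a, the main alpha-tubulin of developing neurons, had 163, 166 and 214 CPM in Bahd1-WT and 204, 153 and 145 CPM in Bahd1-KO. The groups overlapped, with a log2 fold change of -0.11 (SE 0.19). Tuba4a, an alpha-tubulin made with its last tyrosine already missing, had 246, 199 and 266 CPM in Bahd1-WT and 339, 560 and 374 CPM in Bahd1-KO (chromosome 1, 75214228 to 75219865, minus strand). Every Bahd1-KO library lay above every Bahd1-WT library, with a log2 fold change of 0.84 (SE 0.22, edgeR adjusted p = 0.0641). Tuba8, a divergent alpha-tubulin, had 16.4, 9.43 and 11.5 CPM in Bahd1-WT and 23.9, 38.9 and 20.1 CPM in Bahd1-KO, also without overlap, at 1.15 (SE 0.30, edgeR adjusted p = 0.0643). With the offset Tuba4a and Tuba8 stayed above 0, at 0.46 (adjusted p = 0.0888) and 0.66 (adjusted p = 0.0988), and Tuba1a was at -0.58 (adjusted p = 0.141). Tuba1b, a broadly expressed alpha-tubulin, had 25.5, 15.3 and 31.0 CPM in Bahd1-WT and 38.0, 63.6 and 44.7 CPM in Bahd1-KO. Its log2 fold change was 1.03 (SE 0.29, edgeR adjusted p = 0.0679) and 0.24 with the offset. Tuba1c was near the bottom of the range, at 0.324 to 0.470 CPM in Bahd1-WT and 0.506 to 0.708 CPM in Bahd1-KO.

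The sequences of these genes are alike. In windows of 50 bases of the longest transcript, 72.9% of those of Tuba1a, 73.8% of Tuba1b and 61.0% of Tuba1c occurred in transcripts of other genes, so reads could be split or dropped between them and their values are uncertain. Exons of Gm49450, annotated on the same strand, covered 26.2% of the exon bases of Tuba1a and 22.7% of those of Tuba1b. Exons of Stk16 lie on the opposite strand over 37.3% of those of Tuba4a, and those of Gm15856 over 16.3% of those of Tuba8; the counting is stated to use strand.

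Per kilobase of exon, Tuba1a made up 50.8%, 58.2% and 56.0% of the alpha-tubulin level in the Bahd1-WT libraries and 47.9%, 29.6% and 37.5% in the Bahd1-KO libraries. Tuba4a made up 37.4%, 34.0% and 33.8% in Bahd1-WT and 38.9%, 52.6% and 47.1% in Bahd1-KO. The groups did not overlap for either gene, and in Bahd1-KO replicates 2 and 3 Tuba4a was the larger share. The ratio of Tuba4a to Tuba1a counts, taken within each library, was 1.51, 1.20 and 1.24 in Bahd1-WT and 1.66, 3.65 and 2.58 in Bahd1-KO. The transcripts have GC contents of 52.6% and 53.2%, and the geometric mean of the ratio in Bahd1-KO was 1.913 times that in Bahd1-WT, and 2.098 times after the offset. Factors between the genotypes given for ratios are ratios of geometric means in the same way. This pair and the pairs of genes below were chosen after their values were seen, so their ratios carry no test.

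Of the 7 beta-tubulin genes, 6 were higher in Bahd1-KO at an unadjusted p-value under 0.05, against 19.9% of all genes tested, and with the offset 2 were higher, against 9.89%, and 1 lower, against 11.4%. Tubb3, the neuron-specific beta-tubulin (chromosome 8, 123411424 to 123422015, plus strand), whose promoter is shown above, had 72.2, 40.0 and 75.4 CPM in Bahd1-WT and 119, 466 and 196 CPM in Bahd1-KO. The lowest Bahd1-KO library was above the highest Bahd1-WT library, and Bahd1-KO replicate 2 was the highest of all. The log2 fold change was 2.06 (SE 0.47, edgeR adjusted p = 0.0634), 1.34 without Bahd1-KO replicate 2, and 0.78 (SE 0.21, adjusted p = 0.0913) with the offset. Genes of like GC content had a median log2 fold change of 1.02. After the offset, levels were 91.3, 68.4 and 110 CPM in Bahd1-WT and 115, 196 and 153 CPM in Bahd1-KO, still without overlap. None of the windows of 50 bases of Tubb3 occurred in another gene's transcript.

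Tubb4a, the most abundant beta-tubulin per kilobase and a main isotype of oligodendrocytes and neurons, had 591, 489 and 589 CPM in Bahd1-WT and 627, 1445 and 941 CPM in Bahd1-KO. Its log2 fold change was 0.85 (SE 0.28, edgeR adjusted p = 0.088), 0.50 without Bahd1-KO replicate 2, and -0.24 (adjusted p = 0.227) with the offset, so its direction depended on the offset. Tubb5, a beta-tubulin needed in dividing neural precursors, had 184, 139 and 224 CPM in Bahd1-WT and 240, 501 and 295 CPM in Bahd1-KO. It kept its direction with the offset, at 0.92 (SE 0.29, edgeR adjusted p = 0.081) without it and 0.62 (adjusted p = 0.126) with it, and was at 0.55 without Bahd1-KO replicate 2. Tubb2a, a major neuronal beta-tubulin, ranged from 99.8 to 124 CPM in Bahd1-WT and from 157 to 254 CPM in Bahd1-KO, and Tubb4b, found also in cilia, from 94.7 to 117 CPM and from 130 to 218 CPM. Both were separated between the genotypes, at 0.75 and 0.67 (0.48 and 0.40 without Bahd1-KO replicate 2), and both were below 0 with the offset, at -0.07 and -0.09. Tubb2b, a beta-tubulin of migrating neurons, had 41.5, 34.0 and 90.0 CPM in Bahd1-WT and 58.1, 103 and 66.3 CPM in Bahd1-KO, which overlapped. Tubb6, a minor isotype, ran from 0.340 to 1.15 CPM in Bahd1-WT and from 1.14 to 3.12 CPM in Bahd1-KO, also overlapping, with a log2 fold change of 1.52 (SE 0.52, edgeR adjusted p = 0.0977), 0.52 with the offset and 0.93 without Bahd1-KO replicate 2, where its unadjusted p-value was 0.0693. Windows shared with other genes made up 49.6% of Tubb2a, 39.3% of Tubb2b and 50.9% of Tubb4b, whose values are uncertain for that reason.

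Per kilobase, Tubb3 was 7.81%, 5.29% and 7.41% of the beta-tubulin level in Bahd1-WT and 10.6%, 18.4% and 13.0% in Bahd1-KO, so the share was larger in every Bahd1-KO library. Tubb4a held 48.5% to 54.2% in Bahd1-WT and 46.7% to 52.0% in Bahd1-KO, with overlap. Against Tubb4a, a transcript of like GC content (57.9% and 57.2%), Tubb3 stood at a ratio of 0.122, 0.0818 and 0.128 in Bahd1-WT and 0.190, 0.322 and 0.209 in Bahd1-KO. The factor between the genotypes was 2.16, and 2.03 after the offset. Against Stmn3, with a GC content of 57.3%, the ratio of Tubb3 was 0.420, 0.212 and 0.303 in Bahd1-WT and 0.453, 0.807 and 0.896 in Bahd1-KO, a factor of 2.30, and 2.28 after the offset.

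Gamma-tubulin is encoded by neighboring genes on chromosome 11. Tubg1 (101119938 to 101126419), the broadly expressed copy, had 15.6, 10.9 and 11.7 CPM in Bahd1-WT and 20.9, 61.0 and 29.1 CPM in Bahd1-KO. Tubg2 (101155907 to 101161787), the copy enriched in brain, had 22.9, 18.3 and 19.6 CPM in Bahd1-WT and 29.6, 64.4 and 33.8 CPM in Bahd1-KO. Neither overlapped between the genotypes, and the log2 fold changes were 1.54 (SE 0.38, edgeR adjusted p = 0.0634) for Tubg1 and 1.07 (SE 0.29, edgeR adjusted p = 0.0653) for Tubg2. Without Bahd1-KO replicate 2 they were 0.98 and 0.65. With the offset Tubg1 was at 0.41 (adjusted p = 0.129) and Tubg2 at -0.05 (adjusted p = 0.796). The ratio of Tubg1 to Tubg2 within a library was 0.680, 0.595 and 0.598 in Bahd1-WT and 0.706, 0.947 and 0.862 in Bahd1-KO, at GC contents of 57.2% and 57.3%. Every Bahd1-KO library had the higher ratio, that of Bahd1-KO replicate 1 by the smallest margin. The genes share 14.1% and 14.3% of their windows with other genes.

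**Figure D2:**
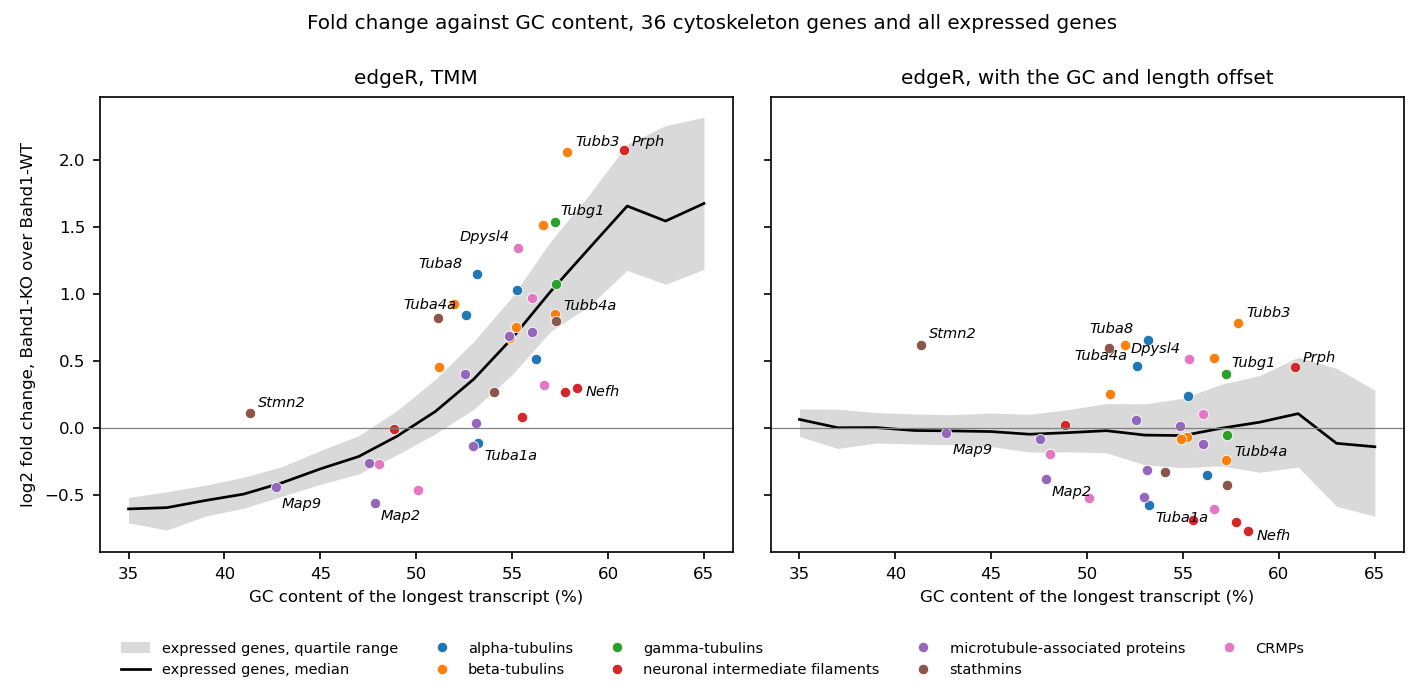
Log2 fold change (Bahd1-KO over Bahd1-WT) of the 36 genes, colored by family, against the GC content of the longest transcript in percent, without (left) and with (right) the GC and length offset; the line is the median and the gray band the quartile range of expressed genes in GC bins. Without the offset 18 of the 36 genes lie above and 18 below the median of genes of like GC content, with Tubb3 and Prph highest. With the offset the Spearman correlation with GC over the 36 genes is -0.16.

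The median log2 fold change of the 5 intermediate filament genes was 0.27, and 1 of them, Prph, was higher at an unadjusted p-value under 0.05, a share near the 19.9% of all genes tested. With the offset 0 were higher and 3 lower, against 9.89% and 11.4% of all genes tested. Nefl, the light subunit that seeds the filament, had 486, 697 and 590 CPM in Bahd1-WT and 623, 574 and 564 CPM in Bahd1-KO, with a log2 fold change of -0.01 (SE 0.17). Nefm, the medium subunit, had 300, 359 and 369 CPM in Bahd1-WT and 416, 387 and 438 CPM in Bahd1-KO, and Nefh, the heavy subunit, 200, 226 and 236 CPM in Bahd1-WT and 250.5, 278 and 285 CPM in Bahd1-KO. Neither overlapped between the genotypes, at 0.27 (SE 0.15, edgeR adjusted p = 0.241) and 0.30 (SE 0.15, edgeR adjusted p = 0.189). Ina, alpha-internexin, ran from 230 to 274 CPM in Bahd1-WT and from 254 to 295 CPM in Bahd1-KO. With the offset Nefm, Nefh and Ina were at -0.70, -0.77 and -0.69, with adjusted p-values of 0.214, 0.136 and 0.0992, and Nefl at 0.02. Their GC contents were 57.8%, 58.4%, 55.5% and 48.8%, and genes of like GC content had medians of 1.02, 1.34, 0.67 and -0.06 in the fit without the offset. The direction for Nefm, Nefh and Ina thus depended on the offset, and Ina was also below 0 with upper-quartile factors (-0.07). Exons of Nefl and Nefm overlap on opposite strands, over 32.8% of those of Nefl and 19.2% of those of Nefm.

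Prph, peripherin (chromosome 15, 99055174 to 99058978, plus strand), is the intermediate filament of peripheral neurons and of brainstem and spinal neurons that send axons outward. Its counts were 82, 93 and 111 in Bahd1-WT and 124, 889 and 244 in Bahd1-KO. As CPM these were 0.896, 1.51 and 1.51 in Bahd1-WT and 2.85, 9.33 and 4.21 in Bahd1-KO, so the groups were separated and Bahd1-KO replicate 2 was the highest. The log2 fold change was 2.08 (SE 0.45, edgeR adjusted p = 0.0634), 1.44 without Bahd1-KO replicate 2 and 0.46 (SE 0.28, adjusted p = 0.387) with the offset. Prph had the highest GC content of the 36 genes, 60.8%, where genes of like GC content had a median of 1.66. After the offset its levels were 1.21, 2.92 and 2.48 CPM in Bahd1-WT and 2.82, 3.05 and 3.05 CPM in Bahd1-KO, which overlapped. Per kilobase it was 0.141%, 0.184% and 0.198% of the intermediate filament level in Bahd1-WT and 0.353%, 1.16% and 0.534% in Bahd1-KO. The 9 markers of brainstem and motor neurons summed to 78.1 to 133 CPM in Bahd1-WT and 97.3 to 150 CPM in Bahd1-KO, with none at 0. Of the 9, 7 had log2 fold changes above 0, with 2 higher and 1 lower at an unadjusted p-value under 0.05, shares near the 19.9% and 12% of all genes tested. The highest was Slc18a3, the vesicular acetylcholine transporter of cholinergic neurons, with means of 0.462 CPM in Bahd1-WT and 2.59 CPM in Bahd1-KO, at 2.51 (SE 0.51, edgeR adjusted p = 0.0634) and 0.85 with the offset. The lowest was Isl1, a transcription factor of motor neurons, at -0.53 (SE 0.22, edgeR adjusted p = 0.139) and -0.29 with the offset. Both were named after their values were seen. The sum of the markers was 97.3 CPM in Bahd1-KO replicate 2, below that of the other Bahd1-KO libraries, and the part of these markers in the level of Prph was not tested.

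Of the 8 microtubule-associated protein genes, 4 had log2 fold changes above 0 and 4 below. Map2, the dendritic protein (chromosome 1, 66175273 to 66442583, plus strand), had 1959, 1911 and 1808 CPM in Bahd1-WT and 1537, 925 and 1388 CPM in Bahd1-KO. Every Bahd1-KO library was below every Bahd1-WT library, with a log2 fold change of -0.56 (SE 0.20, edgeR adjusted p = 0.107), -0.37 without Bahd1-KO replicate 2 and -0.38 (SE 0.15, adjusted p = 0.186) with the offset. Its direction was thus the same with and without the offset, whereas genes of like GC content had a median of -0.21. Map1a, its partner in mature dendrites, had 661, 524 and 555 CPM in Bahd1-WT and 608, 1113 and 1081 CPM in Bahd1-KO. Bahd1-KO replicate 1 lay within the Bahd1-WT range and the other Bahd1-KO libraries far above it, at 0.69 (SE 0.24, edgeR adjusted p = 0.0999), and 0.02 with the offset. Map1b, the related protein of growing axons, had 1293, 1460 and 1355 CPM in Bahd1-WT and 1101, 944 and 1376 CPM in Bahd1-KO, with overlap.

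The ratio of Map1a to Map2 was 0.337, 0.274 and 0.307 in Bahd1-WT and 0.396, 1.20 and 0.779 in Bahd1-KO, without overlap. In Bahd1-KO replicate 2 Map1a had more counts than Map2, and in each of the other libraries fewer. The transcripts differ in GC content, 54.8% against 47.8%, and the factor between the genotypes, 2.35, was 1.34 after the offset. The factor for Map1a over Map1b was 1.89, and 1.07 after the offset.

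Mapt, which encodes tau, had 354, 305 and 407 CPM in Bahd1-WT and 388, 546 and 477 CPM in Bahd1-KO, with a log2 fold change of 0.40 (SE 0.18, edgeR adjusted p = 0.167) and 0.06 with the offset. Map6, which makes microtubules stable in the cold, had 55.6 to 80.3 CPM in Bahd1-WT and 85.6 to 150 CPM in Bahd1-KO, without overlap, at 0.72 (SE 0.24, edgeR adjusted p = 0.0879). It was at -0.12 with the offset and at 0.46 without Bahd1-KO replicate 2. Map4, a widely expressed relative of tau, was at 697 to 710 CPM in Bahd1-WT and 699 to 754 CPM in Bahd1-KO, with a log2 fold change of 0.03 (SE 0.14) and -0.31 (adjusted p = 0.267) with the offset, so its direction depended on the offset. Map7, which recruits kinesin to microtubules, had 83.9 to 85.7 CPM in Bahd1-WT and 72.1 to 83.8 CPM in Bahd1-KO. Map9, a protein of spindles and cilia, had 147 to 161 CPM in Bahd1-WT and 83.1 to 134 CPM in Bahd1-KO. With Map2, these were the 3 genes whose Bahd1-KO libraries all lay below the Bahd1-WT libraries, by the smallest margin for Map7. The log2 fold changes were -0.14 for Map7 and -0.44 for Map9, and with the offset -0.51 (adjusted p = 0.0971) and -0.04 (adjusted p = 0.843).

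**Figure D3:**
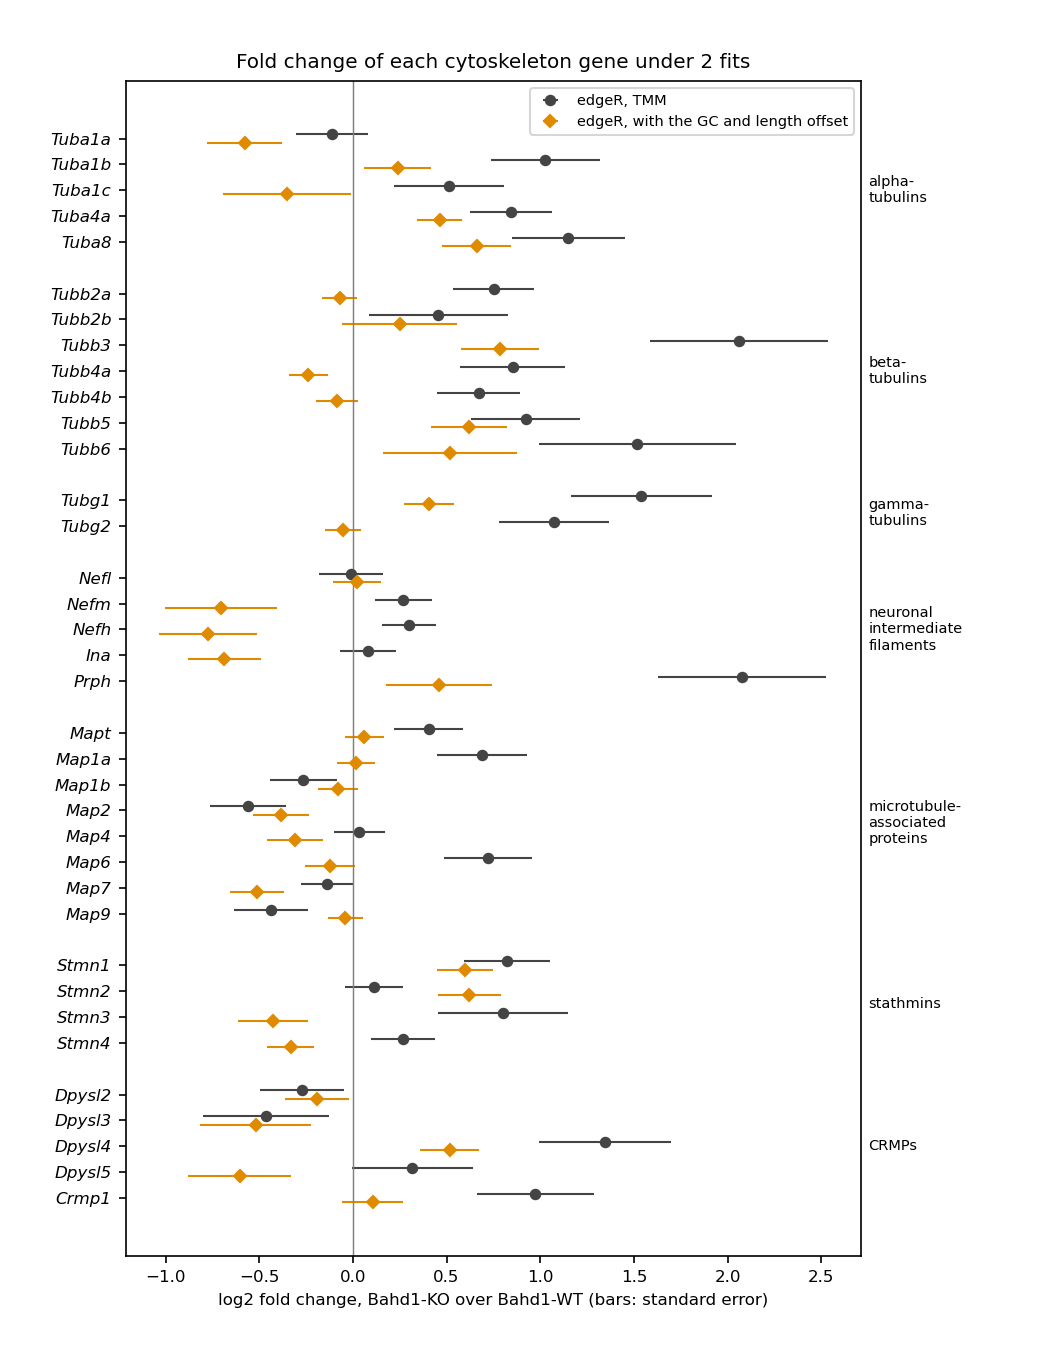
Log2 fold change (Bahd1-KO over Bahd1-WT) with its standard error for each of the 36 genes, in the fit without the GC and length offset and in the fit with it. Tubb3 is at 2.06 and 0.78, Nefh at 0.30 and -0.77, and Map2 at -0.56 and -0.38.

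All 4 stathmin genes had log2 fold changes above 0 without the offset. Stmn1, the widely expressed stathmin, had 62.6, 51.3 and 69.2 CPM in Bahd1-WT and 88.7, 145 and 89.9 CPM in Bahd1-KO, without overlap. Its log2 fold change was 0.82 (SE 0.23, edgeR adjusted p = 0.0664), 0.55 without Bahd1-KO replicate 2, and 0.60 (SE 0.15, adjusted p = 0.0862) with the offset, although 36.5% of its windows occur in other genes and the value is uncertain. Stmn2, a stathmin of growing axons, had 407, 447 and 525 CPM in Bahd1-WT and 512, 505 and 475 CPM in Bahd1-KO. The groups overlapped and the log2 fold change was 0.11 (SE 0.15, edgeR adjusted p = 0.627). It had the lowest GC content of the 36 genes, 41.3%, where genes of like GC content had a median of -0.49, and with the offset it was at 0.62 (SE 0.17, adjusted p = 0.0923). Stmn3 had 172, 188 and 248 CPM in Bahd1-WT and 263, 577 and 219 CPM in Bahd1-KO, and Stmn4, like Stmn3 a stathmin enriched in the nervous system, 169, 145 and 195 CPM in Bahd1-WT and 202, 231 and 180 CPM in Bahd1-KO. Both overlapped, at 0.80 and 0.27, and both were below 0 with the offset, at -0.43 and -0.33. Without Bahd1-KO replicate 2, Stmn3 was at 0.24, with an unadjusted p-value of 0.201 in edgeR. The ratio of Stmn1 to Stmn2 had a factor of 1.60 between the genotypes, and 0.985 after the offset.

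Of the CRMP genes, Dpysl4 had 13.1, 9.96 and 10.6 CPM in Bahd1-WT and 15.9, 44.8 and 24.7 CPM in Bahd1-KO, and every Bahd1-KO library was above every Bahd1-WT library. Its log2 fold change was 1.35 (SE 0.35, edgeR adjusted p = 0.0641), 0.86 without Bahd1-KO replicate 2, and 0.52 (SE 0.16, adjusted p = 0.114) with the offset. Crmp1, a mediator of semaphorin signals, had 66.0, 40.3 and 77.6 CPM in Bahd1-WT and 78.4, 163 and 119 CPM in Bahd1-KO, narrowly separated, at 0.97 (SE 0.31, edgeR adjusted p = 0.0837) and 0.10 with the offset. Dpysl2, the most abundant of the 5 per kilobase and a promoter of microtubule assembly in axons, had 250, 291 and 255 CPM in Bahd1-WT and 301, 184 and 174 CPM in Bahd1-KO. Bahd1-KO replicate 1 was its highest library and the other Bahd1-KO libraries its lowest, with a log2 fold change of -0.27 (SE 0.22, edgeR adjusted p = 0.412). Without Bahd1-KO replicate 1 its adjusted p-value was 0.0316. Dpysl3, a CRMP of immature neurons, had 52.0, 49.5 and 120 CPM in Bahd1-WT and 51.3, 45.4 and 64.1 CPM in Bahd1-KO, where 1 Bahd1-WT library was far above the rest. Dpysl5, which restrains neurite growth, ran from 17.1 to 39.1 CPM in Bahd1-WT and from 24.3 to 38.6 CPM in Bahd1-KO. The ratio of Dpysl4 to Dpysl2 was 0.0525, 0.0342 and 0.0414 in Bahd1-WT and 0.0528, 0.244 and 0.142 in Bahd1-KO, so Bahd1-KO replicate 1 was level with the highest Bahd1-WT library. The factor was 2.91, and 1.64 after the offset.

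**Figure D4:**
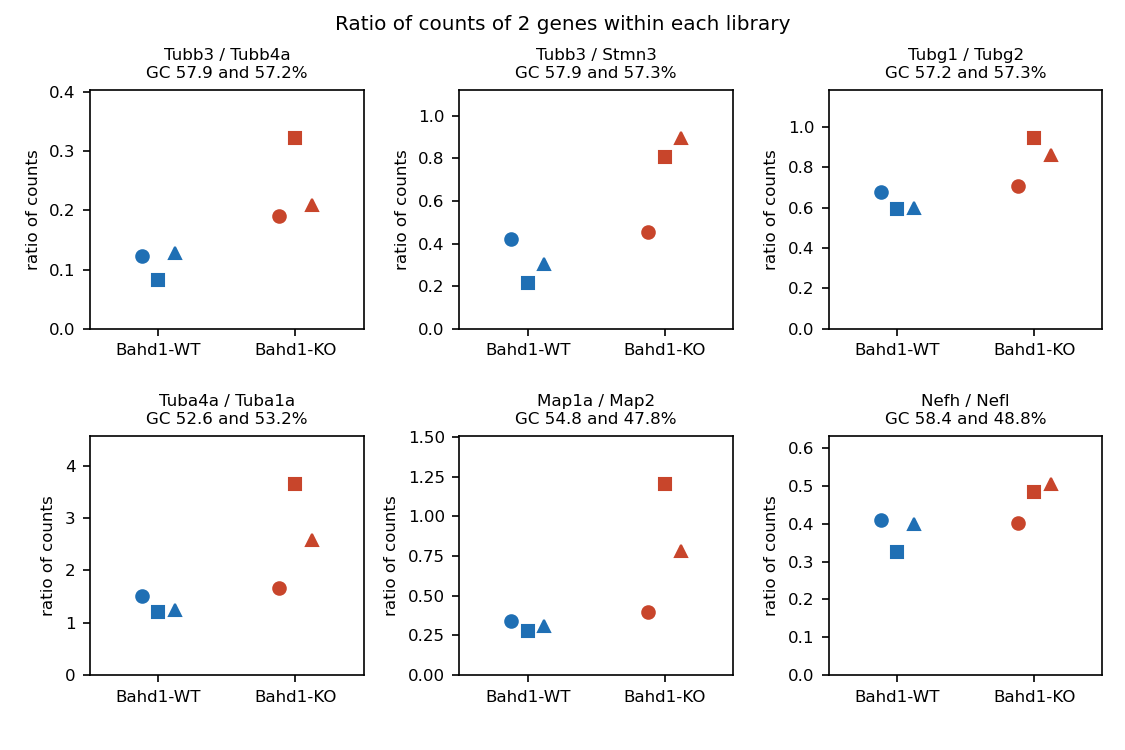
Ratio of the counts of paired genes within each library, on linear axes from 0, for Bahd1-WT (blue) and Bahd1-KO (red), with circles, squares and triangles for replicates 1, 2 and 3. For Tubg1 over Tubg2 the Bahd1-WT libraries lie between 0.595 and 0.680 and the Bahd1-KO libraries between 0.706 and 0.947; Nefh over Nefl overlaps.

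In Bahd1-WT, levels per kilobase of exon were highest for Tubb4a (250 CPM per kilobase), followed by Stmn3 (179), Nefl (175), Map2 (115), Tuba1a (100.4), Stmn4 (88.5), Map1b (86.4), Stmn2 (82.1), Ina (80.0) and Tubb2a (70.0). In Bahd1-KO the order was Tubb4a (451 CPM per kilobase), Stmn3 (311), Nefl (174), Tubb3 (139), Tubb2a (118) and Tuba4a (115), with Map2 at 78.0. Tubb3 was at 33.5 CPM per kilobase in Bahd1-WT. These levels are means over the libraries of a genotype. The place of Tubb3 in Bahd1-KO rested on replicate 2, with 466 CPM against 119 and 196 CPM in replicates 1 and 3. Transcripts that share much sequence, such as Tuba1a and Tubb2a, may be placed too low or too high in this order. Tuba1c (0.175 CPM per kilobase in Bahd1-WT), Tubb6 (0.269) and Prph (0.653) were the lowest.

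Genes that act on these proteins were read from the same fit. Of 152 related genes in 10 lists, 150 were in the table and 147 were tested, and 53 were higher and 6 lower at an unadjusted p-value under 0.05, against 19.9% and 12% of all genes tested, with a median log2 fold change of 0.15. With the offset 25 were higher and 21 lower, against 9.89% and 11.4% of all genes tested, with a median of 0.05. The counts of the single lists are read against the same shares, and several lie near them. Of the 27 kinesin and dynein motor genes, which carry cargo along microtubules, 11 were higher and 1 lower (5 and 2 with the offset). Their median was 0.38 (0.04 with the offset). The highest was Dctn1, the dynactin subunit that links dynein to its cargo, with a mean of 56.8 CPM in Bahd1-WT and 233 CPM in Bahd1-KO, at 2.04 (SE 0.49, edgeR adjusted p = 0.0634) and 0.69 with the offset. The lowest was Kif2c, a kinesin that takes microtubules apart in dividing cells, at -0.70 (SE 0.53) and -0.78 with the offset. Its means were 0.215 CPM in Bahd1-WT and 0.124 CPM in Bahd1-KO. Of 17 genes of tubulin folding and quality control, 6 were higher and 1 lower (6 and 3 with the offset). They ran from Tbce, a folding cofactor, at -0.47 (-0.26 with the offset) to Arl2, a GTPase of the same machinery, at 1.60. Arl2 had a mean of 12.7 CPM in Bahd1-WT and 38.7 CPM in Bahd1-KO, and was at 0.89 with the offset. Of 18 genes tested for enzymes that modify tubulin, 7 were higher and 0 lower (4 and 3 with the offset). Ttll12 was highest at 1.66 (0.61 with the offset) and Ttll7, a polyglutamylase, lowest at -0.45 (-0.003 with the offset).

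Of 18 genes for microtubule ends and severing, 5 were higher and 3 lower (4 and 1 with the offset), with a median of -0.03 (0.07 with the offset). Camsap2, a protein of minus ends, was lowest at -0.45 (-0.23 with the offset). Genes of the gamma-tubulin ring, in which both gamma-tubulins sit, had a median of -0.21 over 9 genes, and 0.14 with the offset. Of them, 3 were higher and 0 lower (1 and 0 with the offset). Mzt2 was highest at 1.16 (0.45 with the offset) and Tubgcp4 lowest at -0.36 (-0.17 with the offset). Other tubulins were tested for 3 of 6 genes, 0 higher and 0 lower (0 and 1 with the offset). Tubd1 was at -0.03 (0.10 with the offset) and Tubb1, a tubulin of platelets, at -0.97 (-1.72 with the offset). Other microtubule-associated proteins and the doublecortin family held the widest range, with 4 higher and 1 lower of 13 tested (1 and 2 with the offset). Map1s, the short relative of Map1a, had a mean of 2.23 CPM in Bahd1-WT and 18.3 CPM in Bahd1-KO, at 3.04 (SE 0.88, edgeR adjusted p = 0.0698) and a GC content of 62.1%, and was at 1.02 with the offset. Dcx, doublecortin of immature neurons, had a mean of 60.7 CPM in Bahd1-WT and 25.4 CPM in Bahd1-KO, at -1.26 (SE 0.37, edgeR adjusted p = 0.0723) and -0.76 with the offset. Of 15 kinases and phosphatase subunits, 8 were higher and 0 lower (1 and 4 with the offset). They ran from Ttbk2, a tau kinase, at -0.41 to Cdk5r2, an activator of the kinase CDK5, at 1.29. With the offset Ttbk2 was at 0.02 and Cdk5r2 at -0.41. Of 12 membrane skeleton genes, 3 were higher and 0 lower (0 and 1 with the offset). They ran from Macf1 at -0.36 (-0.03 with the offset) to Sptbn4, a spectrin of the axon initial segment, at 2.15 (0.25 with the offset). Of 15 genes of the actin cytoskeleton, 6 were higher and 0 lower (3 and 4 with the offset). They ran from Marcks at -0.44 (-0.21 with the offset) to Cotl1 at 1.84 (0.38 with the offset).

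**Figure D5:**
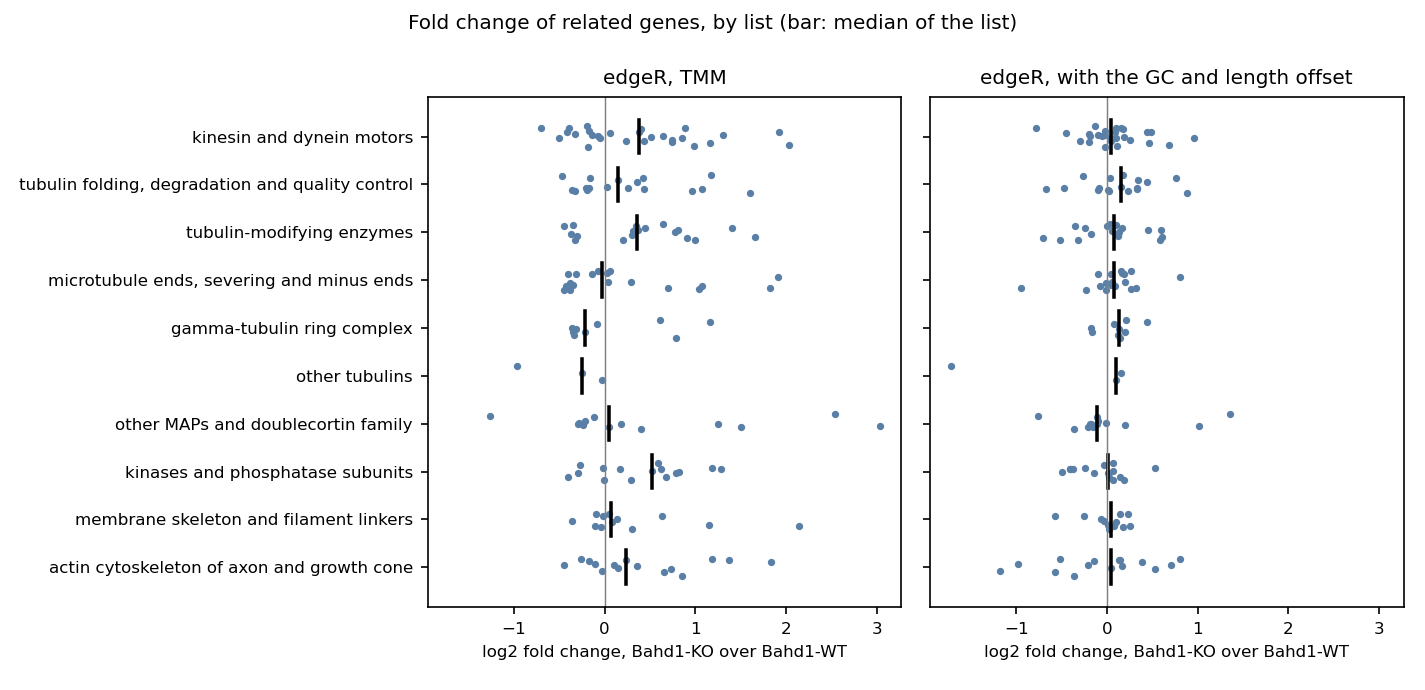
Log2 fold change (Bahd1-KO over Bahd1-WT) of each tested gene in the 10 related lists, 1 row per list, without (left) and with (right) the GC and length offset; points are genes and bars are list medians. The medians run from -0.25 in other tubulins to 0.52 in kinases and phosphatase subunits without the offset.

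Summed levels of cell type markers did not overlap between the genotypes for some lists. The 7 markers of immature neurons, among which Dcx also stands in the doublecortin list, all had log2 fold changes below 0. Of them, 2 were lower at an unadjusted p-value under 0.05, against 12% of all genes tested. Their sum was 235 to 331 CPM in Bahd1-WT and 149.8 to 216 CPM in Bahd1-KO. With the offset their median was -0.76, with 0 higher and 4 lower, against 9.89% and 11.4% of all genes tested. Neurod1, named after its values were seen, was then at 0.15. The 5 markers of choroid plexus and ependyma summed to 251 to 348 CPM in Bahd1-WT and 436 to 1069 CPM in Bahd1-KO, highest in replicate 2. Of the 5, 4 had log2 fold changes above 0. At an unadjusted p-value under 0.05, 2 were higher and 1 lower (2 and 1 with the offset), against 19.9% and 12% of all genes tested (9.89% and 11.4%). Foxj1 was highest at 2.56 (0.93 with the offset), with means of 1.56 CPM in Bahd1-WT and 9.23 CPM in Bahd1-KO. Kl was at -0.40 (-0.29 with the offset), with means of 34.5 CPM in Bahd1-WT and 26.1 CPM in Bahd1-KO. Both were named after their values were seen. The 4 markers of dividing cells summed to 3.68 to 11.7 CPM in Bahd1-WT and 2.06 to 3.25 CPM in Bahd1-KO. Their median log2 fold change was -1.08 (-0.82 with the offset). The 7 astrocyte markers summed to 5708 to 6199 CPM in Bahd1-WT and 3821 to 5455 CPM in Bahd1-KO, with a median of -0.23 (0.007 with the offset). Of these 7, however, 3 were higher and 1 lower at an unadjusted p-value under 0.05, against 19.9% and 12% of all genes tested. With the offset 3 were higher and 0 lower, against 9.89% and 11.4%. They ran from Slc1a2, a glutamate transporter, at -0.49 (-0.20 with the offset) to Aldh1l1 at 1.03 (0.40 with the offset). Both were named after their values were seen. Oligodendrocyte markers (8 genes) summed to 5408 to 6210 CPM in Bahd1-WT and 5611 to 8497 CPM in Bahd1-KO, with overlap. Overlap was also seen for the 7 markers of cerebellum (969 to 1121 CPM in Bahd1-WT and 977 to 1221 CPM in Bahd1-KO), the 8 of cortex, hippocampus and striatum (405 to 522 CPM and 475 to 616 CPM), the 5 of olfactory bulb and nerve (24.3 to 90.2 CPM and 28.0 to 102 CPM), the 6 of microglia (143 to 193 CPM and 180.2 to 216 CPM) and the 6 of endothelial and mural cells (380.0 to 435 CPM and 330.2 to 399 CPM). None of these markers was at 0 in the mean over the libraries. Of the 9 pan-neuronal markers, 5 were higher and 0 lower at an unadjusted p-value under 0.05, against 19.9% and 12% of all genes tested. Their median was 0.51. With the offset 3 were higher and 1 lower, against 9.89% and 11.4% of all genes tested, with a median of 0.17. The part of any of these markers in the levels of the cytoskeleton genes was not tested.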

How the data were processed

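RNA was measured in 6 samples, 3 per genotype, assigned from their titles. Per the labels and the methods, the authors trimmed reads with cutadapt 1.11, aligned them to GRCm38 with STAR 2.5.0a and counted reads on exons by strand with featureCounts 1.4.6-p3 (supplementary methods also name Tophat2). They deposited raw counts per gene, unnormalized, which can split or drop reads of genes with like sequence. Same-genotype samples are taken as separate mice. The 36 genes, the lists of related and marker genes and the tests were chosen with earlier results of these data known.

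Genes that reached 10 counts over all samples were tested with edgeR 4.0.16 in R 4.3.3 (TMM, quasi-likelihood, genotype only, Benjamini-Hochberg over all 23975 genes). CPM use TMM library sizes. DESeq2 1.42.0 was an alternative, as were other normalizations and filters, leaving out each sample, the replicate block and the GC and length offset. The offset came from natural splines, fitted to log2 CPM in each library, of GC content (5 degrees of freedom) and log length (3), over 13283 genes with mean log2 CPM above 1, with GENCODE M21 transcripts, which covered 23940 genes. The offset fits that leave out a Bahd1-KO sample were added after the data were seen. Expressed genes in the correlation and GC bins are those in that range. Genes of like GC content are those in the same bin of GC content. Named were all 36 genes, Bahd1, and the highest and lowest fold change of each related list, of which 1 gene is not reported here; pairs for ratios were chosen after their values were seen. Tested on simulated counts, edgeR recovered 200 of 200 genes with 4-fold changes among 23482 genes, with 7 false calls. The spread between simulated replicates was capped so that such changes could be recovered. This checks the procedure and does not give the power in these libraries. Depth was 42297150 to 93557948 counts. Floors cover counting error only.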

Additional observations from a re-analysis of the deposited data

How the results depend on the processing

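The count of genes of the 36 called at an adjusted p-value under 0.05 was 0 in edgeR with TMM, 9 with total counts (9.4% of all genes tested were called there), 16 with either form of DESeq2 (21.3%), 16 with a filter of at least 1 count (11%), and 0 to 20 when 1 sample was left out, where the 20 came without Bahd1-KO replicate 1 (30%). The count higher at an unadjusted p-value under 0.05 was 11 to 20 when 1 sample was left out, lowest without Bahd1-WT replicate 2, where 4286 of all genes had such a p-value in either direction, against 7627 with all samples. The count lower was 2 with upper-quartile factors and with each of the other filters, and 0 to 3 when 1 sample was left out. Such a p-value, in either direction, was held by 8322 of 23975 genes with upper-quartile factors. It was held by 8251 of 32795 genes with a filter of at least 1 count, 7182 of 18779 with at least 60, and 7137 of 18627 with edgeR's own filter. With 1 sample left out it was held by 4286 to 10244 genes. The median log2 fold change was 0.36 to 0.77 over these samples. With the GC and length offset 8 genes were higher and 9 lower, with a median of -0.062, and leaving out Bahd1-KO replicate 1, 2 or 3 as well gave 8 higher each time, 11, 5 and 4 lower (6186, 3250 and 4491 of all genes in either direction, against 5113 with all samples), and medians of -0.068, -0.014 and -0.050; without replicate 1, 16 passed the adjusted threshold, as did 10.7% of all genes tested.

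The mean correlation of deviations was -0.16 for same-numbered samples, against 0.08 for other numbers. Deviations within a genotype sum to 0, so the second mean follows from the first and is no separate reference. With so few samples per genotype, these values cannot decide whether the numbers pair mice. The replicate block alone gave 0 genes at an adjusted p-value under 0.05, 17 higher and 1 lower at an unadjusted one (5231 of all genes in either direction), and a median of 0.59; with the offset as well it gave 0, 8 and 7 (3807 of all genes), and -0.061.

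Directions turned for these genes under the offset (and, in parentheses, under the offset with the block): Tuba1c -0.35 (-0.36), Tubb2a -0.070 (-0.069), Tubb4a -0.24 (-0.24), Tubb4b -0.086 (-0.077), Tubg2 -0.053 (-0.053), Nefl 0.021 (0.036), Nefm -0.70 (-0.77), Nefh -0.77 (-0.82), Ina -0.69 (-0.70), Map4 -0.31 (-0.33), Map6 -0.12 (-0.12), Stmn3 -0.43 (-0.41), Stmn4 -0.33 (-0.34) and Dpysl5 -0.60 (-0.52). Upper-quartile factors moved the median of all genes from -0.06 to -0.20, and with them Ina was at -0.067, Map4 at -0.11 and Stmn2 at -0.030. Nefl, near 0 throughout, was at 0.0101 with DESeq2's size factors in edgeR, 0.0101 with DESeq2 without its prior and 0.0098 with it, 0.070 with total counts and 0.0040 with the block. When 1 sample was left out, Nefl ran from -0.14 to 0.12, Tuba1a from -0.25 to 0.026, Ina from -0.0025 to 0.14 and Dpysl3 from -0.69 to 0.075, and Tuba1a and Dpysl3 turned without Bahd1-WT replicate 3. None of these genes passed an adjusted p-value of 0.05 in the fit with TMM. The cause of these shifts was not tested.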
